A study of Mus musculus with 6 samples.

Results

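The interferon-stimulated genes described here are 31 of the 45777 genes in a table of read counts from mouse small intestine. They were chosen by symbol from a list of antiviral and interferon-response genes that leaves out the GBP and IRG families of interferon-inducible GTPases, and all 31 symbols were found. Mx1 and Mx2 are in the list although the proteins they encode are themselves GTPases, of the dynamin-like kind. The samples were 3 libraries labelled PKCzeta overexpression (replicates 2-1, 4-1 and 4-2) and 3 control libraries labelled GFP (replicates 1-1, 1-4 and 3-1), one library per sample of total RNA. PKCzeta is the product of Prkcz, a kinase of the atypical PKC class, and GFP is the green fluorescent protein. All 6 titles begin with the letters DIO, which the labels do not explain. The sources used here do not give the strain, sex, age or diet of the mice, the vector or promoter that carried PKCzeta or GFP, or what the replicate numbers stand for. The stated aim was to find genes that differ after Prkcz overexpression.

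Interferons are secreted when a cell senses viral nucleic acid or other danger. Type I interferons and interferon-lambda activate the kinases JAK1 and TYK2, which lead to the transcription factor complex ISGF3, which contains STAT2 and IRF9. ISGF3 binds the interferon-stimulated response element in the promoters of its target genes. Interferon-gamma, made by lymphocytes, acts mainly through another promoter element, the gamma-activated sequence. In the intestine the epithelium responds above all to interferon-lambda, and the cells of the underlying lamina propria to the type I interferons.

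Promoter sequences were at hand for 22 members, credited to RefSeq on GRCm38.p6, the assembly that mm10 names. Each window ran from 250 bases before a start site of the promoter table to 50 bases after it. For 12 of the 22 members a window stood at the end of the annotated gene where transcription starts, and for the other 10 each window's site lay inside the gene span, by 61013 bases or more for Ifit1bl1 and by 8 to 538 bases for the rest. A core of the interferon-stimulated response element, GAAA and GAAA with any pair of bases between them, was searched on both strands (TTTC and TTTC on the other), together with TTCNNNGAA, a core of the gamma-activated sequence that reads the same on both strands. The first motif was found in 13 of the 22 members (59.1%), against 3.99% of 27025 genes with a promoter in the table. The second was found in 4 of the 22 (18.2%), against 9.55% of those genes. In Bst2 the motifs overlap each other, and in Ifih1 the only match lies after the start site. The stretches below show the response element core in members whose values are described further on, and the gamma-activated core of Irf1. Capitals mark the motif, including copies that overlap, and each stretch runs in the direction of the gene and ends before the start site of its window. That site lies 410 bases inside the annotated span of Ifit3, 427 bases inside that of Ifit3b and 19 bases inside that of Oas1a, so the Ifit3 and Ifit3b stretches lie within those spans and that of Oas1a runs into its span.
Isg15, chr4:156200860-156200911, minus strand: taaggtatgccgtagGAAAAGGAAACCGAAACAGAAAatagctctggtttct
Ifit1, chr19:34640770-34640828, plus strand: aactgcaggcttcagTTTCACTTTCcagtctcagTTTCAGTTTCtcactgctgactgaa
Ifit3, chr19:34583358-34583431, plus strand: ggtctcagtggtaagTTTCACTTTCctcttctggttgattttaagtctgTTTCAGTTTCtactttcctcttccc
Ifit3b, chr19:34607754-34607827, plus strand: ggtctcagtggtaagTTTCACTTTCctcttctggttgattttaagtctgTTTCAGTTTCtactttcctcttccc
Oas1a, chr5:120907526-120907560, minus strand: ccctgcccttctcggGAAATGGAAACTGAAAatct
Oas1g, chr5:120887614-120887646, minus strand: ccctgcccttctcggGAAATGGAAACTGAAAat
Rsad2, chr12:26456548-26456587, minus strand: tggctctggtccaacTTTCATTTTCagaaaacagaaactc
Bst2, chr8:71537572-71537617, minus strand: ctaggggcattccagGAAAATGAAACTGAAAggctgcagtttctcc
Irf1, chr11:53769909-53769947, plus strand: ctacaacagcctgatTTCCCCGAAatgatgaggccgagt
The stretches of Ifit3 and Ifit3b are letter for letter the same, and that of Oas1g equals the first 33 bases of that of Oas1a. Isg15 carries 3 overlapping copies of the core. A match in letters is a description of the window and does not show that a factor binds there.

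Total counts ran from 77573133 to 87572356 in the PKCzeta-labelled libraries and from 85411847 to 93742978 in the GFP-labelled libraries. Mitochondrial genes took 9.15%, 5.64% and 2.90% of the counts in PKCzeta replicates 2-1, 4-1 and 4-2, and 9.03%, 3.35% and 10.7% in GFP replicates 1-1, 1-4 and 3-1. Rows of ribosomal RNA took 4.44%, 2.33% and 0.956% in the same PKCzeta replicates, and 4.40%, 1.35% and 4.66% in the same GFP replicates. The targeted gene Prkcz stood at 82.5, 100.07 and 57.0 CPM in the PKCzeta-labelled libraries, against 70.5, 98.6 and 96.9 CPM in the GFP-labelled ones, where CPM is the count normalised to the scaled size of its library. Its log2 fold change was -0.15 (SE 0.24; adjusted p = 0.950 in edgeR), so its own level does not tell the labels apart. Every direction given here is therefore a direction between labels. All 14 enterocyte markers had a lower mean under the PKCzeta label, whereas 54.3% of all tested genes had a log2 fold change above 0. At an unadjusted p under 0.05 in edgeR, 7 of the 14 were lower, against 3.07% of all genes, and 0 had an adjusted p under 0.05. The summed level of the 14 markers was 28801.5, 36827.6 and 17966.5 CPM in the PKCzeta-labelled libraries against 48525.6, 47508.1 and 36998.3 CPM in the GFP-labelled ones. In bulk tissue, fewer cells of a type and less RNA per cell cannot be told apart.

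No interferon-stimulated gene of the list passed the test between the labels over all genes. All 31 members passed the filter on low counts, and 0 of the 31 had an adjusted p under 0.05 in edgeR's quasi-likelihood test, as was the case for 0 of the 18456 genes tested (0%). The members' adjusted p ran from 0.858 to 0.999. DESeq2 called 76 of 16281 genes (0.467%), and 0 of them were members. The log2 fold change was above 0 for 22 of the 31 members (71.0%), against 54.3% of all tested genes, and the members' median was 0.13 against 0.035 over all tested genes. That split was 16 of 31 in limma voom with sample weights and 25 of 31 on the TPM scales. The median of all tested genes was also higher there, at 0.14 on log2(TPM + 1) and 0.23 on log2(TPM + 0.1). The share of all genes above 0 on those scales is not given. In the main test the members' standard errors ran from 0.19 to 0.72 with a median of 0.36, and 28 of the 31 intervals (95%) held 0. At an unadjusted p under 0.05, 1 member was higher (Oas2) and 2 were lower (Oasl1 and Ifi27l2b), where 2.41% of all genes were higher and 3.07% lower. The ranges of the groups did not overlap for 1 higher member (Oas2; 4.72% of all genes) and 1 lower member (Oasl1; 5.66% of all genes). With 1 or 2 members each, these counts are near the shares over all genes. Without PKCzeta replicate 4-1, 7 members were higher at an unadjusted p under 0.05 and 10 had higher ranges that did not overlap. Without PKCzeta replicate 2-1, 0 were higher and 4 lower at that p, and the members' median was -0.042, against -0.014 over all tested genes. Ranges of fewer libraries separate more easily, and the shares over all genes in these smaller fits are not given. The counts without a library therefore cannot be set against the shares above.

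**Figure D1:**
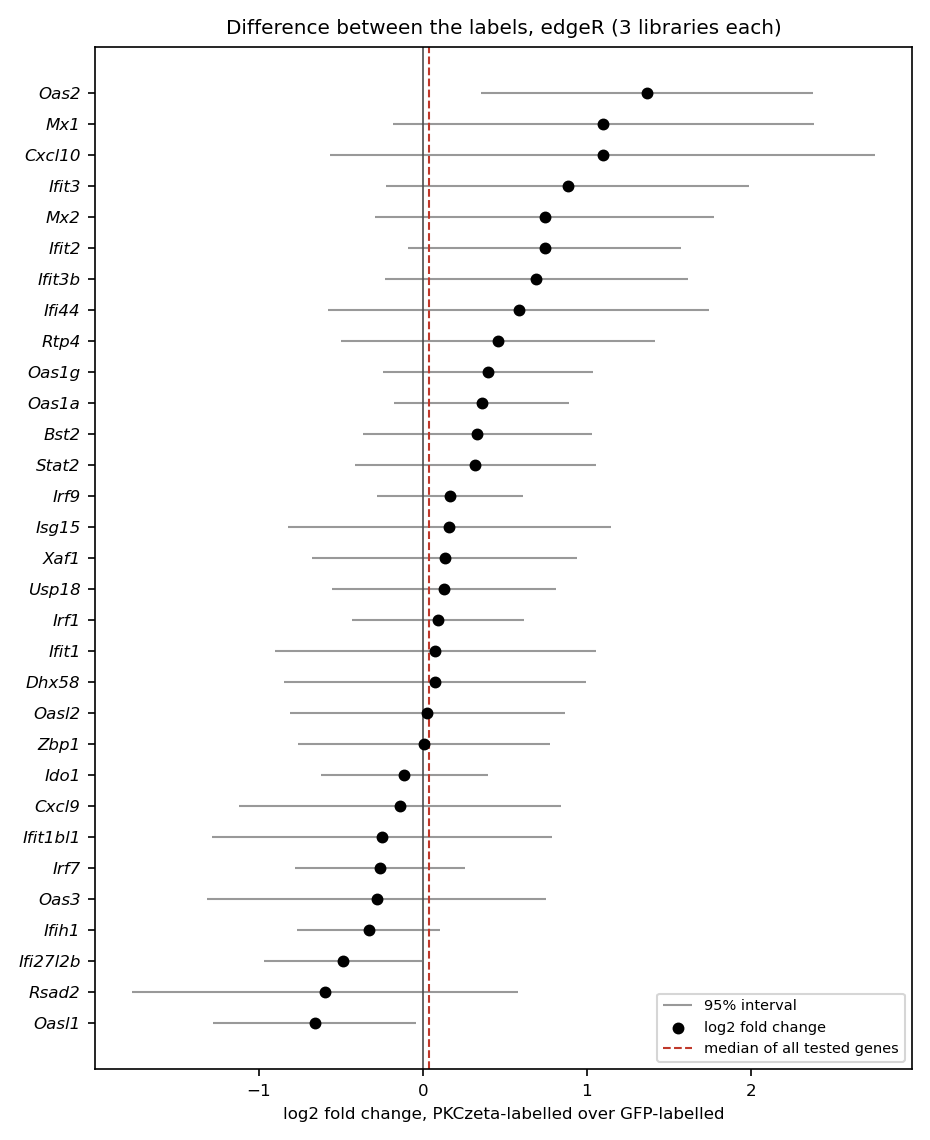
Log2 fold change of each of the 31 members, PKCzeta-labelled over GFP-labelled libraries (3 each), with its 95% interval from edgeR; the dashed line is the median of all tested genes, 0.035. The points run from -0.66 for Oasl1 to 1.37 for Oas2, and 28 of the 31 intervals hold 0.

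The members' levels varied between libraries of the same label. PKCzeta replicate 2-1 held the highest value of 18 of the 31 members (58.1%), against 14.5% of all tested genes. GFP replicate 1-4 held the lowest value of 13 members (41.9%), against 20.6% of all tested genes, and PKCzeta replicate 4-1 that of another 8 (25.8%, against 12.8%). The 18 genes are Ifit1, Ifit2, Ifit3, Ifit3b, Oas1a, Oas1g, Oas2, Oasl2, Mx1, Mx2, Isg15, Usp18, Irf9, Dhx58, Bst2, Ifi44, Rtp4 and Xaf1. In them replicate 2-1 stood at 1.01 to 2.27 times the next library, with a median of 1.37. The next library was PKCzeta replicate 4-2 for 9 of the 18, PKCzeta replicate 4-1 for 1, GFP replicate 3-1 for 5 and GFP replicate 1-1 for 3. The median deviation of the 31 members from their own mean, on log2(CPM + 0.1), was 0.52, -0.34 and 0.026 in PKCzeta replicates 2-1, 4-1 and 4-2, and 0.065, -0.51 and 0.075 in GFP replicates 1-1, 1-4 and 3-1. The lowest and the highest of these 6 values thus lie in opposite groups, and the values of the groups overlap. By the deposited TPM values, replicate 2-1 was the highest library of 14 members (45.2%), against 8.85% of all tested genes. This pattern was noticed in the data and has no test.

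Of the immune cell lists, T cell, dendritic cell and plasmacytoid dendritic cell markers had their highest sum in replicate 2-1, and the others did not. The summed level of 9 T cell markers was 45.7 CPM there, against 19.4 and 25.3 CPM in PKCzeta replicates 4-1 and 4-2 and 29.1, 16.8 and 17.04 CPM in GFP replicates 1-1, 1-4 and 3-1, and 8 of the 9 markers were highest in it. The 8 dendritic cell markers summed to 41.9, 18.9 and 34.3 CPM in the PKCzeta-labelled libraries and to 31.6, 23.0 and 16.4 CPM in the GFP-labelled ones, with 3 of the 8 highest in replicate 2-1. The 7 markers of plasmacytoid dendritic cells, which are known as strong makers of type I interferon, summed to 128, 107 and 117 CPM in the PKCzeta-labelled libraries and to 105, 100.5 and 111 CPM in the GFP-labelled ones. The 11 macrophage and monocyte markers summed to 329, 317 and 385 CPM in the PKCzeta-labelled libraries and to 264, 300.2 and 185 CPM in the GFP-labelled ones, with 1 of the 11 highest in replicate 2-1. The 8 neutrophil markers summed to 7.85, 48.2 and 30.0 CPM in the PKCzeta-labelled libraries and to 7.29, 8.31 and 3.30 CPM in the GFP-labelled ones. At an unadjusted p under 0.05 in edgeR, 5 of 7 tested neutrophil markers were higher, against 2.41% of all genes. At that p 1 macrophage and monocyte marker was higher too, and 0 in each of the other immune cell lists. The 8 natural killer and cytotoxic cell markers summed to 20.5, 45.4 and 13.8 CPM in PKCzeta replicates 2-1, 4-1 and 4-2 and to 45.2, 22.01 and 48.4 CPM in GFP replicates 1-1, 1-4 and 3-1. The 7 B cell and plasma cell markers summed to 885, 1017 and 1396 CPM under the PKCzeta label and to 924, 2341 and 807 CPM under the GFP label. Although their sum was not highest there, 4 of these 7 markers were highest in replicate 2-1, against 14.5% of all tested genes. The same held for 3 of 6 tested plasmacytoid dendritic cell markers. It held for 0 of 7 tested neutrophil markers and 0 of 7 tested natural killer and cytotoxic cell markers. None of the markers in these lists was at 0 in all 6 libraries. The part of these cell types, and of the mitochondrial and ribosomal RNA shares given above, in the members' values was not tested. Of the members with a promoter at hand, those highest in replicate 2-1 made up 7 of the 13 members with the response element core and 5 of the 9 without it.

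**Figure D2:**
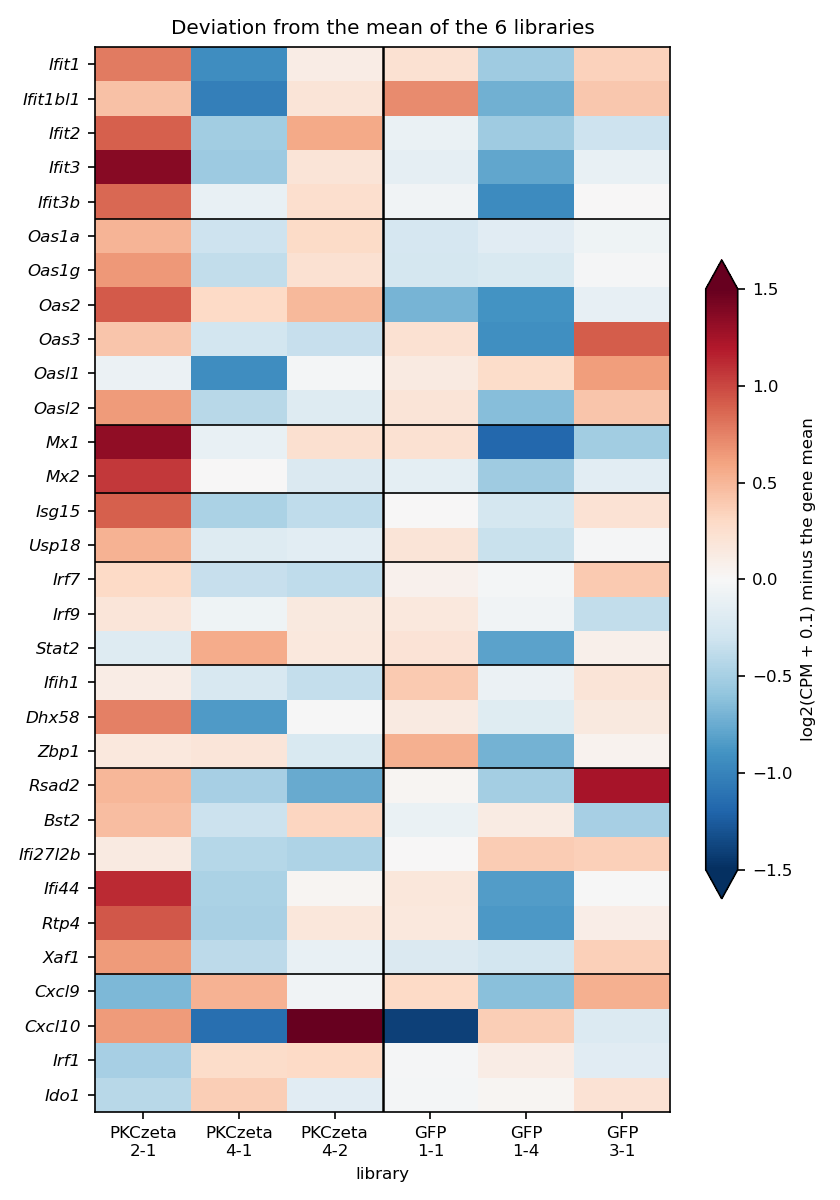
Deviation of each member from its own mean over the 6 libraries, on log2(CPM + 0.1), with PKCzeta-labelled libraries left of the line and GFP-labelled libraries right of it; rows are grouped by role, and the colours are capped at the ends of the scale. The column of PKCzeta replicate 2-1 is red for most members above the bottom block, which holds the genes linked to interferon-gamma. In that block it is red for Cxcl10 (0.64) and blue for Cxcl9, Irf1 and Ido1 (-0.67, -0.50 and -0.41).

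The IFIT proteins bind foreign RNA, in part by the lack of methylation at its cap, and keep it from being translated. Their 5 genes lie together on chromosome 19. Ifit1bl1 had the highest level per length among them, with 37.4 ± 17.3 TPM in PKCzeta-labelled and 37.3 ± 15.8 TPM in GFP-labelled libraries (SD, n = 3 each). Its CPM values were 84.7, 30.5 and 71.0 in PKCzeta replicates 2-1, 4-1 and 4-2, and 102, 37.6 and 82.1 in GFP replicates 1-1, 1-4 and 3-1. The groups overlap almost fully, each with 1 low library, and the log2 fold change was -0.25 (SE 0.45; adjusted p = 0.957 in edgeR). Ifit1 stood at 24.8, 7.53 and 15.6 CPM in the PKCzeta-labelled libraries, against 17.0, 9.98 and 18.4 CPM in the GFP-labelled ones. The highest and the lowest of these 6 values are both PKCzeta-labelled, and the log2 fold change was 0.077 (SE 0.42; adjusted p = 0.986 in edgeR).

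Ifit2, Ifit3 and Ifit3b had higher means under the PKCzeta label, without passing the test. Their log2 fold changes were 0.74 (SE 0.36), 0.88 (SE 0.48) and 0.69 (SE 0.40), each with an edgeR adjusted p of 0.917. Ifit3 ranged from 3.27 to 12.5 CPM in the PKCzeta-labelled libraries and from 2.77 to 4.43 CPM in the GFP-labelled ones. Without PKCzeta replicate 2-1 its log2 fold change was 0.13, and that of Ifit2 was 0.38. Of the 50-base stretches in the longest GENCODE M21 transcript of Ifit3, 51.2% occur letter for letter in transcripts of Ifit3b, so the counts of this pair may be shared. Ifit1 and Ifit3b lie wholly within the span of Ifit1bl1 on the other strand, and Ifit1bl1 shares 23782 bases with Ifit1bl2 on its own strand. The sources used here do not say whether reads were counted by strand, so the values of these genes are uncertain to that extent.

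The OAS enzymes make short chains of adenosine joined from 2' to 5' when they bind double-stranded RNA, and these chains activate the nuclease RNase L. Oas1a, Oas1g, Oas2 and Oas3 lie within one stretch of chromosome 5, and the like genes Oasl1 and Oasl2 lie elsewhere on it. Oasl2 keeps the enzyme's activity in mice, while Oasl1 lacks it and is known there to hold back the translation of Irf7. Oas1a stood at 29.4, 16.6 and 25.2 CPM in the PKCzeta-labelled libraries, against 17.3, 18.4 and 19.8 CPM in the GFP-labelled ones. Replicates 2-1 and 4-2 lie above all GFP-labelled libraries and replicate 4-1 lies below them, for a log2 fold change of 0.36 (SE 0.23; adjusted p = 0.917 in edgeR). Oas1g had 0.40 (SE 0.28), and 57.6% of the 50-base stretches of Oas1a occur in Oas1g, so this pair may share counts too. Without PKCzeta replicate 2-1 the log2 fold changes were 0.12 for Oas1a and 0.077 for Oas1g.

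Oas2 and Oasl1 were the members whose groups did not overlap, in opposite directions. On GRCm38.p6, Oas2 lies at chr5:120730333-120749886 and Oasl1 at chr5:114923143-114937911. Oas2 stood at 0.977, 0.603 and 0.698 CPM in PKCzeta replicates 2-1, 4-1 and 4-2 and at 0.252, 0.206 and 0.424 CPM in GFP replicates 1-1, 1-4 and 3-1, which came from 18 to 85 reads per library. All PKCzeta-labelled values lie above all GFP-labelled ones, but at 0.119 TPM over the 6 libraries Oas2 was the member with the lowest level. This gives a log2 fold change of 1.37 with SE 0.44 and a 95% interval of 0.35 to 2.38. The unadjusted p was 0.0144 and the edgeR adjusted p 0.858. Oasl1 stood at 23.9, 13.2 and 24.7 CPM in the PKCzeta-labelled libraries, against 27.8, 30.7 and 39.2 CPM in the GFP-labelled ones. All PKCzeta-labelled values lie below all GFP-labelled ones, at a log2 fold change of -0.66 with SE 0.27 and a 95% interval of -1.28 to -0.040. The unadjusted p was 0.0396 and the edgeR adjusted p 0.877. By TPM the groups overlap for Oasl1, at 13.1 ± 4.94 TPM in PKCzeta-labelled and 17.5 ± 2.13 TPM in GFP-labelled libraries (SD, n = 3 each). Oas3 and Oasl2 had log2 fold changes of -0.28 (SE 0.45) and 0.029 (SE 0.36). Oas3 was highest in GFP replicate 3-1 with 14.7 CPM and lowest in GFP replicate 1-4 with 4.08 CPM.

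The MX proteins hold back early steps of virus replication. Both genes lie on chromosome 16 and are listed as transcribed pseudogenes, since the reference strain carries broken copies. Mx1 stood at 2.50, 0.848 and 1.12 CPM in the PKCzeta-labelled libraries, against 1.11, 0.354 and 0.617 CPM in the GFP-labelled ones. PKCzeta replicate 2-1 stood above all other libraries, and replicate 4-1 lay within the GFP-labelled range, for a log2 fold change of 1.10 (SE 0.56; adjusted p = 0.917 in edgeR). Mx2 stood at 1.79, 0.812 and 0.679 CPM in the PKCzeta-labelled libraries, against 0.719, 0.526 and 0.714 CPM in the GFP-labelled ones. Again replicate 2-1 led and replicate 4-2 lay within the GFP-labelled range, with a log2 fold change of 0.74 (SE 0.45; adjusted p = 0.917 in edgeR). Without PKCzeta replicate 2-1 the log2 fold changes were 0.46 for Mx1 and 0.15 for Mx2.

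ISG15 is a ubiquitin-like protein that is joined to other proteins during the response, and USP18 removes it and also blocks the type I interferon receptor. Isg15 stood at 4.27, 1.59 and 1.71 CPM in the PKCzeta-labelled libraries, against 2.27, 1.85 and 2.64 CPM in the GFP-labelled ones. The GFP-labelled values lie between replicate 2-1 and the other PKCzeta-labelled libraries. The log2 fold change was 0.16 (SE 0.43; adjusted p = 0.967 in edgeR), and without PKCzeta replicate 2-1 it was -0.49. Usp18 stood at 5.81, 3.50 and 3.59 CPM in the PKCzeta-labelled libraries, against 4.61, 3.19 and 3.98 CPM in the GFP-labelled ones. Replicate 2-1 is again the highest and the other libraries overlap, with a log2 fold change of 0.13 (SE 0.30; adjusted p = 0.964 in edgeR).

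**Figure D3:**
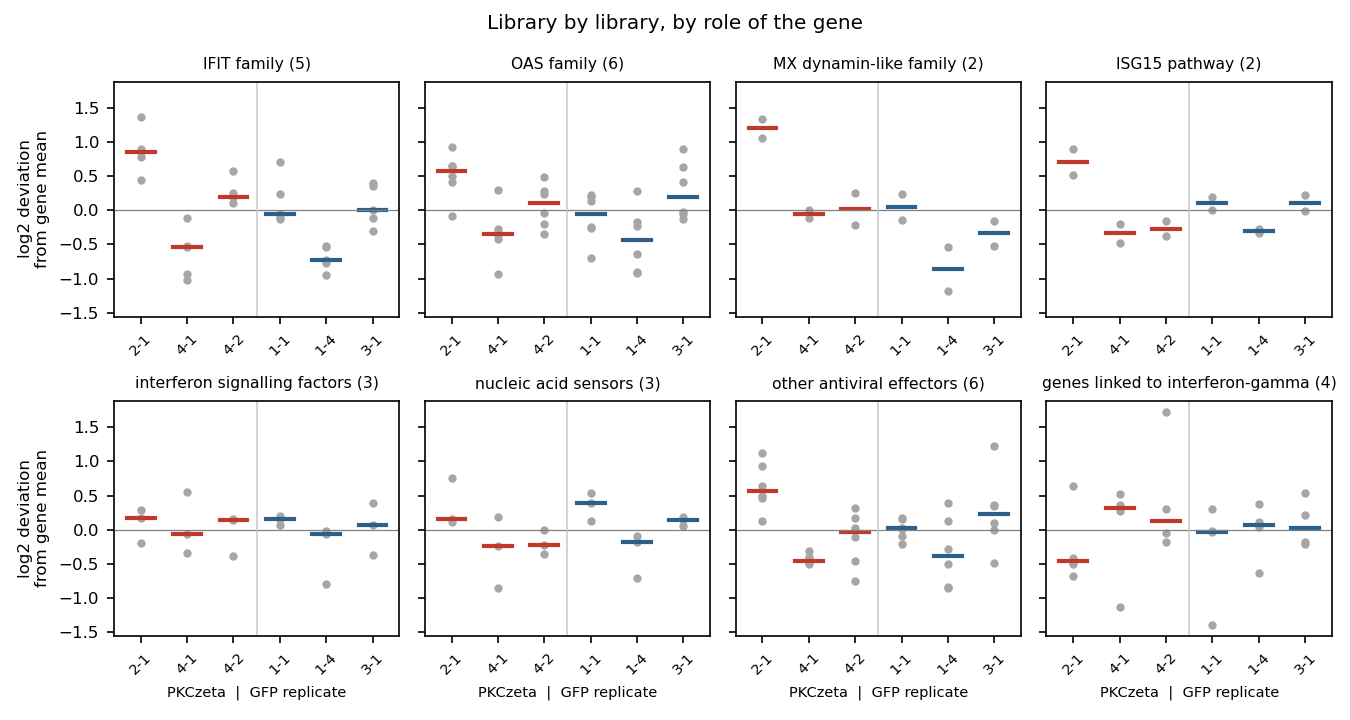
Deviation of the members from their own mean over the 6 libraries, on log2(CPM + 0.1), by role and library; grey points are genes, and bars are the median of the role in a library (red for PKCzeta-labelled, blue for GFP-labelled). In the IFIT family the medians are 0.86, -0.54 and 0.20 in PKCzeta replicates 2-1, 4-1 and 4-2, and for the genes linked to interferon-gamma they are -0.45, 0.32 and 0.12.

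The factors that carry the signal to the nucleus had log2 fold changes from -0.26 to 0.32. Irf7, the factor that amplifies type I interferon production, was among the more abundant members at 35.6 ± 5.44 TPM in PKCzeta-labelled and 37.0 ± 3.02 TPM in GFP-labelled libraries (SD, n = 3 each). Its CPM values were 63.0, 40.5 and 39.5 in the PKCzeta-labelled libraries and 53.7, 50.4 and 67.2 in the GFP-labelled ones. Replicates 4-1 and 4-2 lie below all GFP-labelled libraries and replicate 2-1 lies among them, with a log2 fold change of -0.26 (SE 0.22; adjusted p = 0.917 in edgeR). Irf9 stood at 24.6, 20.8 and 24.1 CPM in the PKCzeta-labelled libraries, against 24.3, 20.9 and 16.9 CPM in the GFP-labelled ones. The groups overlap, and the log2 fold change was 0.17 (SE 0.19; adjusted p = 0.931 in edgeR). Stat2 had 0.32 (SE 0.32) over a range of 5.94 to 15.3 CPM, and unlike most members it was highest in PKCzeta replicate 4-1.

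Among the sensors of nucleic acid, Ifih1 was the most abundant, at 23.1 ± 1.25 TPM in PKCzeta-labelled and 25.5 ± 3.79 TPM in GFP-labelled libraries (SD, n = 3 each). It encodes MDA5, which detects long double-stranded RNA, and stood at 109, 85.4 and 78.7 CPM in the PKCzeta-labelled libraries, against 133, 95.1 and 115 CPM in the GFP-labelled ones. Replicate 2-1 lies within the GFP-labelled range and the other PKCzeta-labelled libraries lie below it, with a log2 fold change of -0.33 (SE 0.19; adjusted p = 0.917 in edgeR). Zbp1, a sensor of Z-form nucleic acid that can start necroptosis, stood at 7.42, 7.54 and 5.63 CPM in the PKCzeta-labelled libraries, against 9.61, 4.01 and 6.86 CPM in the GFP-labelled ones. The PKCzeta-labelled values lie inside the GFP-labelled range, and the log2 fold change was 0.0070 (SE 0.33; adjusted p = 0.999 in edgeR). Dhx58, which encodes the regulator LGP2, had 0.074 (SE 0.40) and ranged from 2.32 CPM in PKCzeta replicate 4-1 to 7.29 CPM in PKCzeta replicate 2-1.

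The other antiviral effectors include the most abundant member. Ifi27l2b (chr12:103450898-103457223 on GRCm38.p6) encodes a small interferon-induced protein of the ISG12 family and had 222 ± 27.9 TPM in PKCzeta-labelled and 271 ± 43.5 TPM in GFP-labelled libraries (SD, n = 3 each). Its CPM values were 229, 155 and 152 in the PKCzeta-labelled libraries and 211, 273 and 269 in the GFP-labelled ones. Replicate 2-1 overlaps GFP replicate 1-1, and the other PKCzeta-labelled libraries lie below all GFP-labelled ones. The log2 fold change was -0.49 (SE 0.21), with an unadjusted p of 0.0483 and an edgeR adjusted p of 0.910. Bst2, which encodes tetherin, a protein that holds budding virus at the cell surface, stood at 5.77, 3.32 and 5.21 CPM in the PKCzeta-labelled libraries, against 3.88, 4.55 and 2.93 CPM in the GFP-labelled ones. The groups overlap through replicate 4-1, with a log2 fold change of 0.33 (SE 0.30; adjusted p = 0.917 in edgeR).

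Rsad2, which encodes viperin, an enzyme that makes a chain-ending nucleotide, had -0.60 (SE 0.51), and GFP replicate 3-1 stood at 15.7 CPM against 3.89 to 9.42 CPM in the other libraries. Without GFP replicate 3-1 its log2 fold change was 0.075. Rtp4 had 0.46 (SE 0.42), Ifi44 had 0.59 (SE 0.50) and Xaf1, which promotes cell death, had 0.13 (SE 0.35). Each of these was highest in PKCzeta replicate 2-1, at 14.6, 3.10 and 5.74 CPM. Of the 50-base stretches of Rtp4, 13.7% also occur in another gene's transcripts. The enterocyte markers given above were lower under the PKCzeta label. So were 9 members, namely Ifi27l2b, Oasl1, Ifih1, Irf7, Rsad2, Oas3, Ifit1bl1, Cxcl9 and Ido1. Lower values were less common among the members, of which 71.0% lay above 0, than among all tested genes, of which 54.3% did. The part of the enterocytes in these values was not tested.

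PKCzeta replicate 2-1 was the highest library for 0 of the 4 genes linked to interferon-gamma, which is near the 14.5% of all tested genes. Irf1, a factor induced by interferon-gamma that carries the gamma-activated core shown above, stood at 71.5, 123 and 124 CPM in the PKCzeta-labelled libraries, against 99.7, 109 and 89.5 CPM in the GFP-labelled ones. The lowest and the highest values are both PKCzeta-labelled, and the log2 fold change was 0.092 (SE 0.23; adjusted p = 0.966 in edgeR). Ido1, which breaks down tryptophan, stood at 26.7, 45.8 and 31.4 CPM in the PKCzeta-labelled libraries, against 34.7, 36.3 and 41.4 CPM in the GFP-labelled ones. The GFP-labelled values lie within the PKCzeta-labelled range, with a log2 fold change of -0.11 (SE 0.22; adjusted p = 0.960 in edgeR).

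Cxcl9 and Cxcl10 encode chemokines that draw T cells through the receptor CXCR3. Cxcl10 stood at 5.02, 1.40 and 10.8 CPM in the PKCzeta-labelled libraries, against 1.15, 4.16 and 2.75 CPM in the GFP-labelled ones. It had the widest spread within a group, and the groups overlap, with a log2 fold change of 1.10 (SE 0.72; adjusted p = 0.917 in edgeR). Without PKCzeta replicate 4-2 the log2 fold change of Cxcl10 was 0.25. The gene lies wholly within the span of Art3 on the other strand, which had a mean of 374 reads per library against 394 for Cxcl10, so its counts are uncertain where strand was not used. Cxcl9 had -0.14 (SE 0.43) and ranged from 1.59 to 3.80 CPM, with its lowest value in PKCzeta replicate 2-1.

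**Figure D4:**
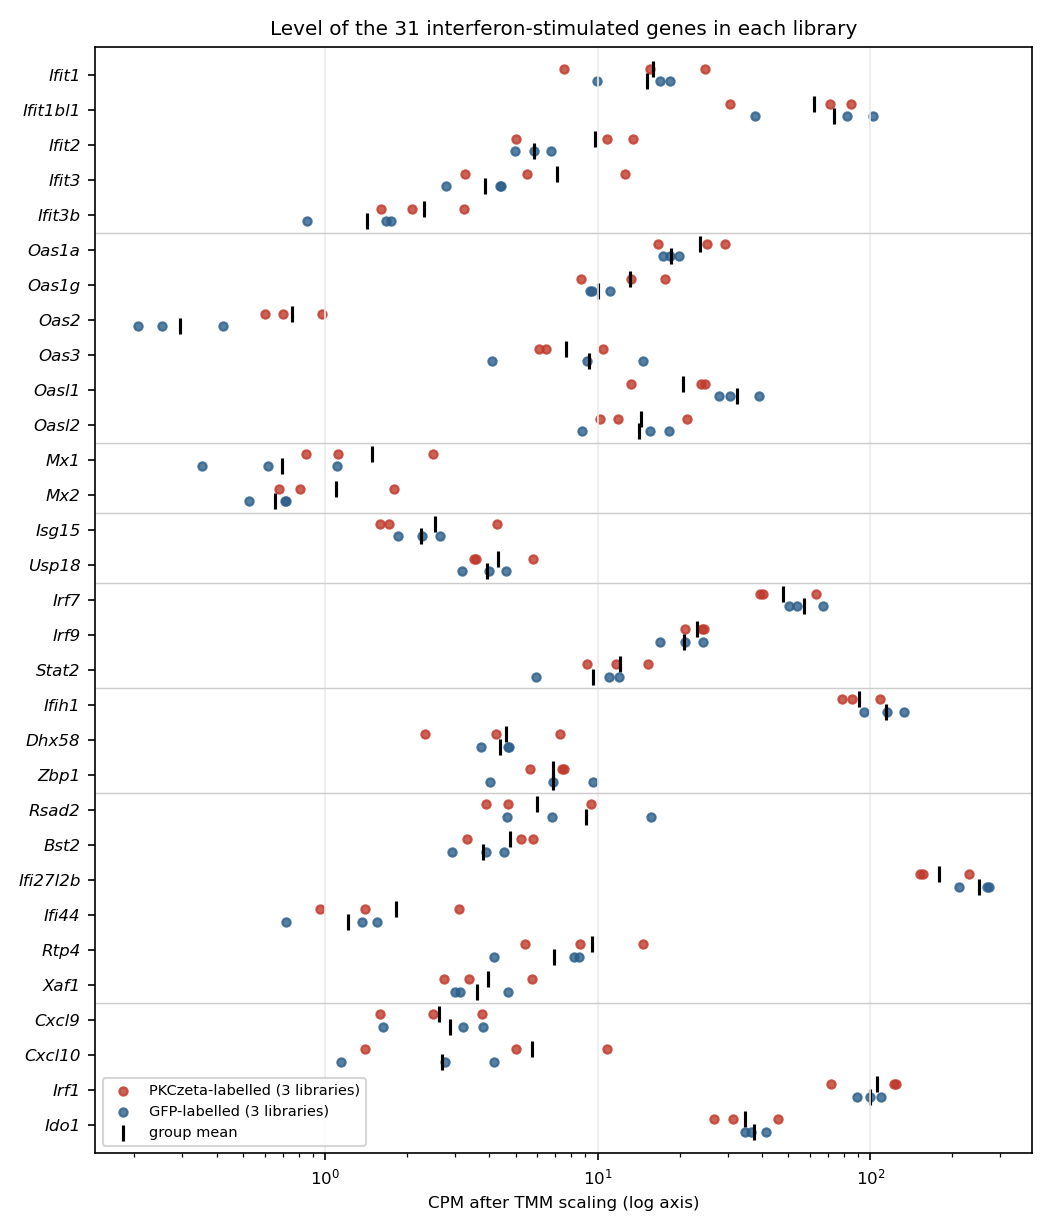
Level of each of the 31 members in each library, in CPM after TMM scaling on a log axis; red points are PKCzeta-labelled and blue points GFP-labelled libraries, black ticks are group means, and grey lines part the roles. Only Oas2 and Oasl1 have groups that do not overlap.

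Transcripts of the interferons themselves were close to absent at this depth. The 15 interferon genes had 38 reads together over all 6 libraries, and 11 of them, among them Ifnb1, the listed Ifna genes, Ifnl2 and Ifnl3, had 0 reads in every library. In GFP replicate 1-1, the smallest library after scaling, 0 reads allow up to 0.0378 CPM, counting 3 reads as the limit, and this covers counting error only. Ifng had 4, 9 and 0 reads in the PKCzeta-labelled libraries and 6, 0 and 0 in the GFP-labelled ones. Of the 6 receptor genes, 1 had a log2 fold change above 0 (median -0.22), against 54.3% of all tested genes. Ifngr2, a chain of the interferon-gamma receptor, had -0.40 (SE 0.23), and Ifnar1, a chain of the type I receptor, had -0.23 (SE 0.15).

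Of the lists of other pathway genes, 0 genes passed an edgeR adjusted p of 0.05. Among 12 receptor kinases, STAT factors and inhibitors, 8 were above 0 (median 0.16), where 54.3% of all tested genes were. The phosphatase gene Ptpn2, with 0.39 (SE 0.15), was the 1 gene with an unadjusted p under 0.05 (2.41% of all genes were higher at that p). Ptprc, the leukocyte phosphatase CD45, had 0.91 (SE 0.45) and stood at 190 CPM in PKCzeta replicate 2-1, against 42.0 to 114 CPM in the other libraries. Among 20 sensors and adaptors upstream of interferon, 11 were above 0 (median 0.11), near the 54.3% of all tested genes. At that p 3 were higher, against 2.41% of all genes, led by Ifi204 with 1.27 (SE 0.35) and by Tmem173, which encodes STING, with 1.18 (SE 0.36).

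A further 51 tested interferon-stimulated genes had a median log2 fold change of 0.12, with 31 above 0, against 54.3% of all tested genes. At an unadjusted p under 0.05, 9 of them were higher and 2 lower, against 2.41% and 3.07% of all genes. PKCzeta replicate 2-1 was the highest library for 15 of the 51, against 14.5% of all tested genes. Trim30a, a regulator of innate signalling, had 1.25 (SE 0.33) and Slfn5 of the schlafen family had 0.91 (SE 0.26), both with an edgeR adjusted p of 0.858. Of 20 further genes induced by interferon-gamma, 8 were above 0 (median -0.18), against 54.3% of all tested genes. At an unadjusted p under 0.05 in edgeR, 3 of the 20 were higher and 1 lower, against 2.41% and 3.07% of all genes. Serpina3g had 1.17 (SE 0.44), while Tapbp, which encodes the MHC class I peptide-loading protein tapasin, had -0.60 (SE 0.21). PKCzeta replicate 2-1 was the highest library for 4 of these 20 genes, against 14.5% of all tested genes. Of the 20 interferon-inducible GTPases, 19 were above 0 (median 0.77), against 54.3% of all tested genes. In edgeR, 9 of the 20 were higher with an unadjusted p below 0.05, where 2.41% of all genes were. For 3 of the 20 the highest library was PKCzeta replicate 2-1, near the 14.5% of all tested genes. The smallest p values among the GTPases were those of Gbp3, with 0.90 (SE 0.19), and Gbp9, with 1.14 (SE 0.26), both with an edgeR adjusted p of 0.858. All comparisons rest on the same 6 libraries, and the difference between the GTPases and the 31 members was not tested.

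**Figure D5:**
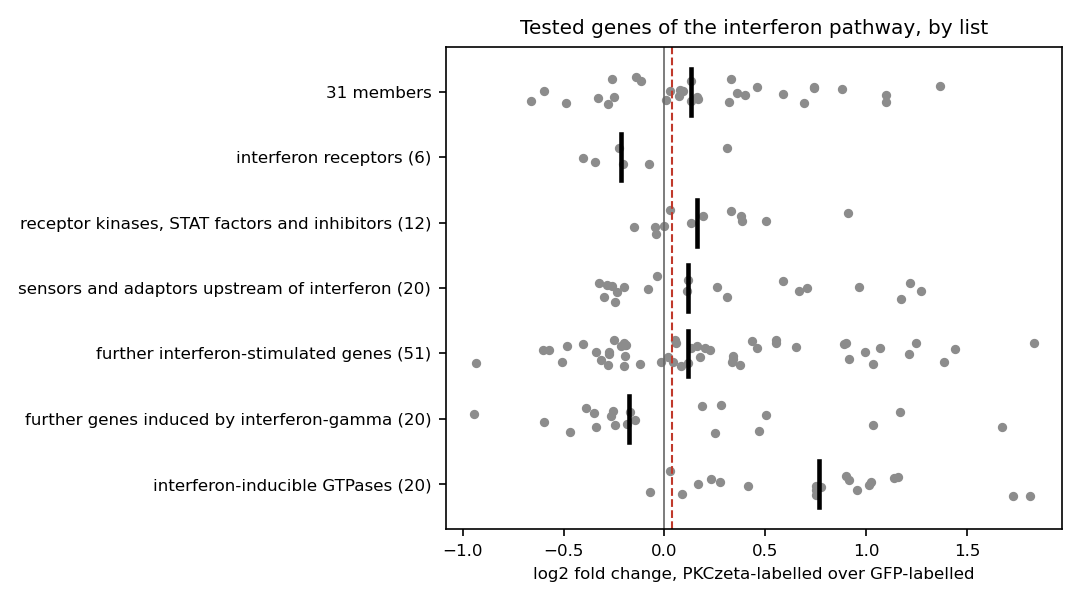
Log2 fold change of the tested genes of each list, PKCzeta-labelled over GFP-labelled libraries; grey points are genes (spread vertically to be seen), black ticks are list medians, and the dashed line is the median of all tested genes. The median is 0.13 for the 31 members and 0.77 for the interferon-inducible GTPases.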

How the data were processed

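Total RNA of small intestine was extracted with a silica column, depleted of ribosomal RNA and made into strand-keeping libraries, per the labels' protocols. The submitters' processing notes name the build mm10 and the tools HISAT2, StringTie, Trimmomatic and FastQC, with no versions; the sources used here do not say which program counted the reads or how strand was treated. The authors deposited raw read counts per gene, in whole numbers. The deposited TPM values, scaled to length and library, were used for levels between genes and in alternatives, and the deposited FPKM values were not used.

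The test was edgeR 4.0.16 (R 4.3.3): filterByExpr kept 18456 of 45777 genes, libraries were scaled by TMM, and a robust quasi-likelihood F test compared PKCzeta with GFP, two-sided, with Benjamini-Hochberg adjustment over all genes tested and a threshold of 0.05. CPM is the count relative to the TMM-scaled library size; a log2 fold change above 0 means higher under the PKCzeta label, and SEs were derived from the F statistic. The labels do not say that each library is a separate animal, so p-values measure only the spread between these samples. The common biological coefficient of variation was 0.354.

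Values in every library are given for the 2 members of each role with the highest mean TPM, for members at an unadjusted p under 0.05 or with groups that do not overlap, and for members that vary 4-fold or more within a group at a mean of at least 0.5 CPM; from each pathway list up to 2 other genes with the smallest p are named. Ifng and the values given for other members were chosen after their values were seen. The members and the lists were chosen with earlier results of these data known. Promoters and positions are from RefSeq (GRCm38.p6), by gene ID, and stretches shared between genes were counted in GENCODE M21 transcripts. Alternatives were other scalings and filters, limma 3.58.1 (voom with sample weights, and on log2(TPM + 1) and log2(TPM + 0.1)), DESeq2 1.42.0, leaving out 64 rows of ribosomal RNA and 15 of mitochondrial genes, and leaving out each library.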

Additional observations from a re-analysis of the deposited data

How the results depend on the processing

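Of the 31 members, 0 passed an adjusted p of 0.05 under any alternative, where the smallest adjusted p was 0.405. Among all genes 0 passed as well, also at 0.1, except in DESeq2, which called 76, none of them a member. The members' median log2 fold change ran from -0.042 to 0.34 when each library was left out, and was 0.0078 in limma voom with sample weights, where 16 of the 31 lay above 0. The median of all tested genes was 0.14 on log2(TPM + 1) and 0.23 on log2(TPM + 0.1), and the members' median was 0.21 and 0.31 there. At an unadjusted p under 0.05, higher members numbered 3 on both TPM scales, 0 with a minimum mean of 1 CPM and 0 to 7 without single libraries. Lower members numbered 1 with DESeq2's size factors, upper quartile factors, that minimum, or without ribosomal and mitochondrial rows, 0 on both TPM scales and 0 to 4 without single libraries. Higher members with groups that do not overlap numbered 3 on both TPM scales, 0 with the minimum and 1 to 10 without single libraries, and lower ones 0 on both TPM scales and 1 to 5. The shares over all genes at these settings are not given, so these counts cannot be set against the shares of the main test. Scalings added after seeing the data gave 14 to 18 members highest in PKCzeta replicate 2-1.

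The direction was the same under every alternative for 16 members and turned for 15, all of them far from the threshold. Without single libraries the log2 fold change ran from -0.50 to 0.12 for Cxcl9, -0.47 to 0.39 for Dhx58, -0.37 to 0.012 for Ido1, -0.091 to 0.89 for Ifi44, -0.45 to 0.41 for Ifit1, -0.60 to 0.076 for Ifit1bl1, -0.027 to 0.27 for Irf1, -0.49 to 0.41 for Isg15, -0.64 to 0.22 for Oas3, -0.41 to 0.26 for Oasl2, -1.12 to 0.075 for Rsad2, -0.042 to 0.74 for Rtp4, -0.19 to 0.26 for Usp18, -0.28 to 0.37 for Xaf1 and -0.26 to 0.32 for Zbp1. In limma voom it was -0.35 for Ifit1, -0.24 for Oasl2, -0.17 for Isg15, -0.28 for Dhx58, -0.0040 for Zbp1 and -0.12 for Xaf1. With DESeq2's size factors and in DESeq2 it was -0.0076 for Zbp1. On log2(TPM + 0.1) it was 0.082 for Oas3, 0.080 for Cxcl9 and 0.077 for Ido1, and on log2(TPM + 1) it was 0.032, 0.058 and 0.076 for the same genes. The cause of these turns was not tested. No paired analysis was possible because the groups share no replicate number in the labels. Depth limits the values of Oas2 and the interferon genes, which had few reads.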
